A study of Mus musculus with 27 samples.

Results

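The clustered protocadherins were followed in the fetal brain of 3 mouse strains. Members were the rows of the gene read count table whose symbols belong to the alpha, beta or gamma protocadherin clusters, and 58 of the 55416 rows qualified. They comprised 12 alternate alpha members (Pcdha) and 2 C-type alpha members (Pcdhac), 22 beta members (Pcdhb), and 12 gamma A (Pcdhga), 7 gamma B (Pcdhgb) and 3 gamma C-type (Pcdhgc) members. Poly(A)-selected RNA of the whole brain of female fetuses was sequenced from AKR/J mice, from C57BL/6J mice and from B6.Cg-Cav1tm1Mls/J mice, called Cav1-null here, a congenic strain on a C57BL/6 background that carries a germline deletion in Cav1, the gene of the membrane scaffold protein caveolin-1. AKR/J and Cav1-null were the short-lived strains of the study and C57BL/6J the long-lived one. Brains were collected at 3 gestational ages, d12, d15 and d17, counted from the day of the vaginal plug as day 1, and each of the 9 combinations of strain and age had 3 libraries. No treatment was given. The labels do not say whether the fetuses of a group came from separate litters, so p-values measure the spread between these libraries.

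Clustered protocadherins are cadherin-like cell surface proteins that neurons use to tell their own branches from those of other neurons. In the alpha and gamma clusters each variable exon has its own promoter, encodes the whole extracellular and membrane-spanning part of the protein, and is spliced to constant exons that all members of that cluster share, whereas beta members are single-exon genes with no constant part. Each neuron is known to pick a small, largely random set of alternate members through promoter methylation, CTCF and cohesin, while the C-type members are regulated in a more uniform way, Pcdhac2 in serotonergic neurons and Pcdhgc4 in neuronal survival being the known examples.

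All 58 rows lie on chromosome 18 of GRCm39 on the plus strand, with the alpha cluster at 37063237-37320716, the beta cluster at 37397991-37657532 and the gamma cluster at 37794846-37975014 in the GENCODE vM39 annotation. The constant exons are common to all alpha or all gamma models, so the reads that could separate members came from the variable exons and their 3′ ends, and reads shared by near-identical copies are uncertain in any member. For comparison between members a level was also divided by the exonic bases not shared with another gene model, while CPM counts reads and favours long members. For 4 rows the table held few or no reads. Pcdhga10 was at 0 reads in all 27 libraries, and its variable exon lies wholly within the antisense gene Gm26672, which had 26 to 145 reads per library. Pcdha4, of which only 404 exonic bases are free of other models, had 0 to 24 reads, and Pcdhb1 had 0 to 26 and was at 0 in 13 libraries. A pair of rows carried the symbol Pcdha11: ENSMUSG00000007440, which GENCODE vM39 calls Pcdha10, and ENSMUSG00000102206, whose exon overlaps Gm10545 and which had 0 to 21 reads. A count of 0 allows up to 3 reads, for counting error only.

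Gene reads totalled 26363697 to 39759702 per library. Cav1, the deleted gene, was at 0 to 0.509 CPM (counts scaled to an equal TMM-adjusted total per library) in the 9 Cav1-null libraries and at 9.24 to 34.2 in AKR/J and 10.4 to 39.9 in C57BL/6J. Several libraries stood apart. The AKR/J d12 libraries held a summed 32792 to 196127 CPM of 7 erythroid genes against at most 16729 elsewhere. Their summed level of 8 neuronal genes, all detected in every library, was 1956 to 2358 CPM against 3613 to 7738 in the other 24. The C57BL/6J d12 libraries spread from 3613 to 6151 CPM on the same list, the 3 C57BL/6J d15 libraries were the deepest of the series, and C57BL/6J d17 replicate 1 had a summed gamma level near theirs, as given among the sums. C57BL/6J d15 replicate 1 held 4881 CPM of 6 connective tissue and cartilage genes, against at most 998 in the other 26. Cav1-null d12 replicate 3 held 716 CPM of 5 choroid plexus genes, against 324 and 292 in replicates 1 and 2. On the connective tissue list it held 858 CPM, against 252 and 181 in them. Fewer neurons in a brain and less of an RNA per neuron cannot be told apart in such bulk samples.

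The first question was which members the fetal brain used. On the mean over 27 libraries, which pools strains whose levels differed, Pcdhgc3 and Pcdhgc4 had the most reads of the 58, with 24.2 and 20.1 CPM. The leaders of the beta, gamma B, gamma A and alternate alpha groups in CPM were Pcdhb19 at 17.98, Pcdhgb6 at 14.1, Pcdhga12 at 10.1 and Pcdha3 at 7.36 CPM. The order was not the same in each strain. Pcdhb19 exceeded both Pcdhgc3 and Pcdhgc4 in every Cav1-null library of d15 and d17. In every AKR/J library of those days it exceeded Pcdhgc4. Per kilobase of unshared exon the order changed: Pcdhgc3 led with 13.3 CPM per kb, followed by Pcdhga11 with 6.39, Pcdhgb6 with 5.84 and Pcdhgc4 with 5.44, while Pcdhac2 reached 4.16 and Pcdhb20, the highest beta member on this scale, 4.11. Antisense models left Pcdhga11 with 1256 unshared of 2649 variable exon bases and Pcdhgc3 with 1821 of 3380. The strand setting of the counts is not given, so whether such overlap removed reads, and with it this order, is uncertain. Pcdhb1 was the lowest of the members with an unshared exon, at 0.04096 CPM per kb.

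Summed over members, the alternate alpha level was higher in every d15 library than in every d12 library of its strain. The 12 rows summed in AKR/J to 4.49, 8.85 and 5.49 on d12, 36.3, 31.7 and 33.8 on d15 and 44.2, 49.6 and 39.8 CPM on d17. In C57BL/6J the sums were 26.8, 35.4 and 11.9 on d12, 63.7, 67.04 and 77.4 on d15 and 106, 49.4 and 70.97 CPM on d17, and in Cav1-null 18.6, 23.9 and 25.1 on d12, 46.1, 41.7 and 49.4 on d15 and 50.7, 55.4 and 57.9 CPM on d17. The 22 beta members also separated d12 from d15 in each strain. Their sums were 63.7, 88.3 and 74.97 on d12, 166, 191 and 183 on d15 and 209.6, 229.8 and 227 CPM on d17 in AKR/J. C57BL/6J gave 97.4, 126 and 64.2 on d12, 189, 203 and 216 on d15 and 242, 187 and 197 CPM on d17, and Cav1-null 88.9, 96.02 and 117 on d12, 140.1, 148 and 152 on d15 and 185, 211 and 198 CPM on d17. The beta sums of the 3 strains overlapped on d17. The 22 gamma members summed in AKR/J to 74.5, 105 and 79.3 on d12, 123, 110.1 and 149 on d15 and 116, 107 and 96.2 CPM on d17. In C57BL/6J they summed to 176, 274 and 115 on d12, 355, 351 and 364 on d15 and 348, 123 and 175 CPM on d17, and in Cav1-null to 145, 143 and 121 on d12, 142, 125 and 144 on d15 and 131, 147 and 134 CPM on d17. The gamma sums of d12 and d15 were separate in AKR/J and C57BL/6J, whereas those of the 3 days overlapped in Cav1-null. Each C57BL/6J d15 gamma sum was above every AKR/J and Cav1-null library.

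**Figure D1:**
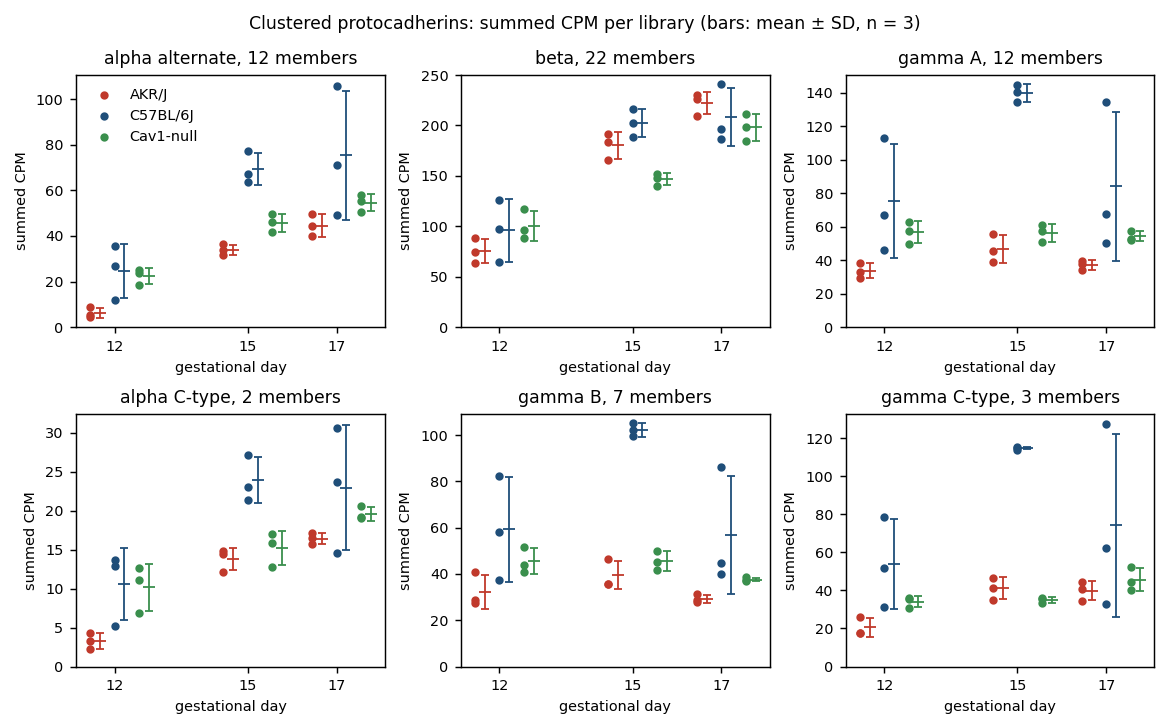
Summed CPM (y axis) of the 6 groups of clustered protocadherins against gestational day (x axis); each point is 1 library, coloured by strain, and the bar beside it is the mean ± SD of 3 libraries. The C57BL/6J d15 gamma A sums of 140.1, 134 and 145 CPM lie above all AKR/J and Cav1-null libraries, and the C57BL/6J d17 libraries of 135, 50.04 and 67.5 are spread apart.

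The order of strains depended on the cluster and the day. On d12 and d15 each AKR/J library was below each C57BL/6J library in the alternate alpha, alpha C-type, gamma A and gamma C-type sums. On d17 only the gamma A and gamma B sums of these strains were separate.

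The early phase, d12 to d15, was compared first, within each strain, by the quasi-likelihood test of edgeR, with p-values adjusted over all genes tested by the Benjamini-Hochberg method and a threshold of 0.05; a member past it is called here. In AKR/J, 27 of 54 tested members rose, against 14.8% of all genes tested, and 0 fell, against 14.0%. In C57BL/6J 22 of 55 rose, against 7.08% of all genes, and 0 fell, against 7.80%. In Cav1-null 13 of 55 rose, against 11.6% of genes, and 0 fell, against 11.8%. The median log2 fold change of tested members was 1.05 for AKR/J, 1.04 for C57BL/6J and 0.39 for Cav1-null, beside medians over all genes of 0.022, -0.038 and -0.0094. At an unadjusted p under 0.05, 0 members were lower in each strain, and DESeq2's Wald test called 28, 40 and 16 members, all higher. The tests covered 54 to 56 of the 58 members, the rest having too few reads: Pcdhb1, Pcdhga10 in all comparisons, and Pcdha4, Pcdha11 (ENSMUSG00000102206) in some.

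Alternate alpha members had the largest median changes. In AKR/J 9 of 10 tested were called higher, with a median log2 fold change of 2.42, in C57BL/6J 7 of 11 (1.45) and in Cav1-null 7 of 11 (1.19). Pcdha1, which showed the largest called alpha change in AKR/J and C57BL/6J, was at 0.0824, 0.197 and 0 CPM in AKR/J on d12 and at 1.602, 1.04 and 0.927 on d15 (log2 fold change 3.45, SE 0.80, adjusted p = 0.0152). In C57BL/6J it went from 0.4104, 1.104 and 0.381 to 1.43, 2.33 and 3.07 CPM (log2 fold change 1.81, SE 0.48, adjusted p = 0.0482). None of these d12 and d15 values overlapped. Pcdha12 was the alpha member with the largest called change in Cav1-null, from 2.27, 1.805 and 1.402 to 4.81, 4.26 and 4.13 CPM (log2 fold change 1.27, SE 0.25, adjusted p = 0.00803). Pcdha3, the most abundant alternate alpha member, was at 0.948, 1.22 and 1.22 on d12, 5.91, 6.87 and 7.002 on d15 and 7.36, 8.497 and 7.75 CPM on d17 in AKR/J. C57BL/6J had 5.24, 6.65 and 1.94 on d12, 10.9, 12.04 and 13.5 on d15 and 14.7, 9.83 and 10.5 on d17, and Cav1-null 3.24, 3.55 and 6.14 on d12, 7.601, 7.75 and 9.25 on d15 and 7.29, 10.1 and 11.6 on d17. In each strain every d15 library was above every d12 library, and the 3 AKR/J d12 libraries were the lowest of the 27. Its early change was called in AKR/J (log2 fold change 2.50, SE 0.31, adjusted p = 0.00175) and Cav1-null (log2 fold change 0.92, SE 0.27, adjusted p = 0.0401) and missed the threshold in C57BL/6J (log2 fold change 1.36, SE 0.39, adjusted p = 0.0561). The AKR/J d12 libraries, with the lowest alpha levels, were those with low neuronal and high erythroid levels. The sum of 7 neural progenitor genes was 3991, 2499 and 4497 CPM in them against 1434 to 1795 in AKR/J on d15, and replicate 1 held 2047 CPM of 7 placenta and yolk sac genes against at most 622 in the other 26 libraries. That list includes Ttr, which is also a choroid plexus gene and reached 619 CPM. Outside AKR/J d12 Ttr made up most of the sum, such as a mean 481 of 485 CPM in AKR/J on d17. Scaled by library size without the erythroid genes and without TMM, the AKR/J ratio of summed alternate alpha CPM, d15 over d12, was 6.26 ± 3.7996 (SD propagated from 3 libraries a group), against 6.69 ± 4.36 with the whole library size and 5.405 ± 2.003 with TMM as reported. With TMM it was 2.81 ± 1.39 in C57BL/6J and 2.03 ± 0.357 in Cav1-null. In C57BL/6J the neuronal sum was 3613 to 6151 CPM on d12 and 6832 to 7738 on d15, and the progenitor sum 2079 to 2619 and 1677 to 1815. In Cav1-null the neuronal sums overlapped, at 4384 to 5600 and 5502 to 5643, and the progenitor sums were 1657 to 2237 and 1401 to 1504. The part of the neuronal, progenitor and placental levels in the early change was not tested.

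Beta members had smaller medians than alternate alpha members. In AKR/J 13 of 21 tested were called higher (median log2 fold change 1.12), in C57BL/6J 11 (1.10) and in Cav1-null 6 (0.50). Pcdhb15 had the largest called beta change in AKR/J, from 0.989, 2.11 and 1.02 to 5.25, 5.41 and 4.22 CPM (log2 fold change 1.79, SE 0.40, adjusted p = 0.0133). For C57BL/6J this was Pcdhb2, from 1.64, 2.27 and 0.889 to 5.16, 5.58 and 5.31 CPM (log2 fold change 1.70, SE 0.32, adjusted p = 0.0245). For Cav1-null it was Pcdhb18, from 5.099, 4.22 and 5.61 to 8.37, 8.33 and 9.49 (log2 fold change 0.81, SE 0.19, adjusted p = 0.01602). In each of these pairs every d15 library exceeded every d12 library. Pcdhb19, the most abundant beta member, was at 4.37, 9.05 and 6.603 on d12, 18.001, 21.4 and 19.98 on d15 and 22.4, 27.3 and 29.6 CPM on d17 in AKR/J. C57BL/6J had 9.03, 12.7 and 5.91 on d12, 20.3, 22.4 and 24.4 on d15 and 23.8, 23.5 and 19.9 on d17, and Cav1-null 8.75, 10.95 and 14.3 on d12, 17.7, 16.1 and 19.9 on d15 and 24.1, 27.4 and 25.6 on d17. Every d15 library was above every d12 library of its strain. It was called higher in the early phase in all 3 strains, with log2 fold changes of 1.52 (adjusted p = 0.00718), 1.24 (adjusted p = 0.0283) and 0.66 (adjusted p = 0.0401).

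Calls of gamma A and gamma B members stood beside 14.8%, 7.08% and 11.6% of all genes called higher in AKR/J, C57BL/6J and Cav1-null. In AKR/J 2 of 11 tested gamma A members were called higher, in C57BL/6J 2 and in Cav1-null 0, and of the 7 gamma B members 0, 1 and 0. Of the 3 gamma C-type members 2, 1 and 0 were called higher. Median log2 fold changes of gamma A were 0.78, 0.80 and 0.037 in the same order of strains, and those of gamma B 0.25, 0.72 and 0.11. Pcdhga1 had the largest called change among gamma A members in AKR/J, from 0.453, 0.822 and 0.356 to 1.45, 1.803 and 2.94 CPM (log2 fold change 1.84, SE 0.51, adjusted p = 0.02804). In C57BL/6J Pcdhga8 went from 4.39, 6.43 and 2.54 to 9.59, 10.8 and 10.3 CPM (log2 fold change 1.16, SE 0.30, adjusted p = 0.0449). Pcdhgb5, the gamma B member called there, went from 8.93, 10.2 and 7.11 to 14.9, 13.96 and 14.004 CPM (log2 fold change 0.66, SE 0.16, adjusted p = 0.0399). In these 3 cases all d15 libraries were above all d12 libraries. Single libraries decided many early calls. In C57BL/6J the count of 22 became 1 without d12 replicate 1, 45 without d12 replicate 2 and 0 without any 1 of the d15 libraries. In AKR/J the count of 27 became 12 without d15 replicate 1 and 11 without d15 replicate 3. In Cav1-null the count of 13 became 4, 7 and 23 when d12 replicate 1, 2 or 3 was left out, and 5, 5 and 4 when d15 replicate 1, 2 or 3 was.

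**Figure D2:**
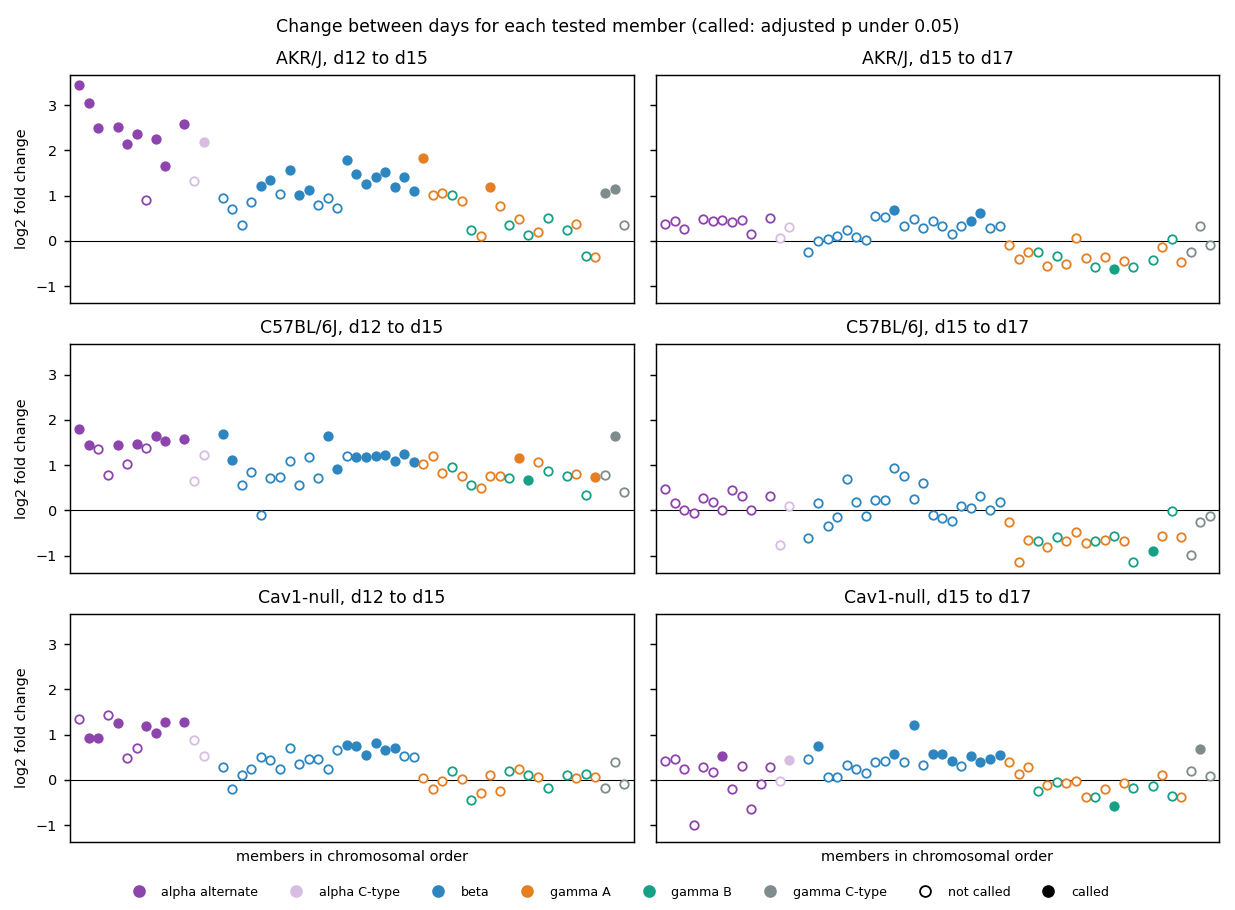
Log2 fold change (y axis) of each tested member, in order along the chromosome (x axis), for d12 to d15 (left) and d15 to d17 (right) in the 3 strains; filled points passed the adjusted p threshold of 0.05 and colours mark the 6 groups. In the early phase the tested beta members lie above 0 in AKR/J, and 20 of 21 do in C57BL/6J and in Cav1-null, with alternate alpha medians of 2.42, 1.45 and 1.19 in AKR/J, C57BL/6J and Cav1-null.

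The late phase, d15 to d17, moved fewer members in AKR/J and C57BL/6J. In AKR/J 3 of 54 tested members rose, against 11.6% of all genes, and 1 fell, against 10.4%. In C57BL/6J 0 rose, against 7.46% of all genes, and 1 of 55 fell, against 5.58%. At an unadjusted p under 0.05 in edgeR's test, 4 C57BL/6J members were higher and 8 lower, beside 6579 of 19888 genes in either direction. DESeq2's Wald test called 2 members higher and 5 lower. In Cav1-null 13 of 56 rose, against 14.5%, and 1 fell, against 12.8%. Among these shares, the Cav1-null rises alone were above that of all genes. In a model over all 27 libraries no member was called in this phase in AKR/J or Cav1-null. The summed level of 5 astrocyte genes was 123 to 133 CPM in Cav1-null on d15 and 212 to 264 on d17, and its part in the late change was not tested.

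Of the members called higher late, all 3 in AKR/J and 10 of the 13 in Cav1-null were betas, out of 21 betas tested in AKR/J, and the AKR/J share was near the 11.6% of all genes. Pcdhb11 had the largest called change in AKR/J, from 6.72, 9.65 and 6.97 to 10.2, 14.4 and 12.4 CPM (log2 fold change 0.68, SE 0.20, adjusted p = 0.0459). Pcdhb13 had it in Cav1-null, from 0.941, 1.45 and 1.86 to 2.64, 2.85 and 4.42 CPM (log2 fold change 1.22, SE 0.30, adjusted p = 0.008504). Every d17 library exceeded every d15 library for both. Among alternate alpha members the only late call was Pcdha7 in Cav1-null, from 3.45, 3.97 and 4.61 to 4.75, 6.07 and 6.52 CPM (log2 fold change 0.53, SE 0.19, adjusted p = 0.0497). Pcdhb19 rose again in AKR/J (log2 fold change 0.43, SE 0.13, adjusted p = 0.0468) and Cav1-null (log2 fold change 0.53, SE 0.11, adjusted p = 0.00232).

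The members that fell late were all gamma B. Pcdhgb5 fell in AKR/J from 7.51, 6.599 and 7.16 to 4.54, 4.74 and 4.34 CPM (log2 fold change -0.63, SE 0.16, adjusted p = 0.0289), with no overlap. In Cav1-null it fell from 8.23, 5.45 and 9.25 to 5.38, 4.202 and 5.72 (log2 fold change -0.58, SE 0.20, adjusted p = 0.0478), and there the libraries overlapped. Pcdhgb7 fell in C57BL/6J from 15.6, 14.9 and 15.2 to 9.37, 6.57 and 7.56 CPM (log2 fold change -0.89, SE 0.18, adjusted p = 0.0236), with no overlap. Of the 11 gamma A members tested, 10 had a negative log2 fold change in AKR/J, all 11 in C57BL/6J, and 7 in Cav1-null, with medians of -0.38, -0.66 and -0.056, but none passed the test. Without C57BL/6J d17 replicate 1, 19 members fell in C57BL/6J in place of 1 (Pcdhgb7). The share of all genes lower in that fit is not given here, so the 19 show only that this library moved the count. In AKR/J the late count of 4 became 0 without d15 replicate 1 and without d17 replicates 2 or 3, 2 without d17 replicate 1, and 1 without d15 replicate 3. In C57BL/6J it was 0 without any 1 of the d15 libraries or without d17 replicate 3, and 3 without d17 replicate 2. In Cav1-null the count of 14 became 8 without d17 replicate 2, and 9 without d15 replicate 1 or d17 replicate 3.

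The 5 C-type members were followed in every library, because their regulation differs from that of the alternate members. Pcdhac1 was at 0.494, 1.18 and 0.559 on d12, 1.66, 2.32 and 1.85 on d15 and 2.24, 2.31 and 1.47 CPM on d17 in AKR/J. In C57BL/6J it was at 2.53, 2.08 and 1.43 on d12, 3.21, 3.42 and 3.18 on d15 and 2.12, 1.14 and 2.26 on d17, and in Cav1-null at 1.55, 2.05 and 0.767 on d12, 2.51, 3.098 and 2.34 on d15 and 2.11, 2.95 and 2.74 on d17. AKR/J was below C57BL/6J on d12 and d15 without overlap, and the d17 libraries of all 3 strains overlapped. None of its 6 day changes passed the test, with early log2 fold changes of 1.31, 0.65 and 0.87 (adjusted p = 0.0706, 0.119 and 0.117). Pcdhac2 was at 1.73, 2.14 and 3.71 on d12, 12.8, 9.87 and 12.98 on d15 and 14.2, 13.4 and 15.7 CPM on d17 in AKR/J. C57BL/6J had 10.4, 11.6 and 3.78 on d12, 18.2, 19.7 and 23.998 on d15 and 28.5, 13.4 and 21.5 on d17, and Cav1-null 11.1, 8.99 and 6.08 on d12, 14.5, 12.8 and 10.4 on d15 and 17.1, 17.6 and 16.3 on d17. Each AKR/J d12 library was below each of the other 24 libraries. It rose in AKR/J in the early phase (log2 fold change 2.19, SE 0.35, adjusted p = 0.00388) and in Cav1-null in the late phase (log2 fold change 0.44, SE 0.13, adjusted p = 0.0192). The sum of 3 serotonergic genes (Tph2, Slc6a4 and Fev) was 0.658 to 2.997 CPM in AKR/J on d12 and 4.71 to 10.4 on d15, and 4.25 to 5.13 in Cav1-null on d15 and 8.84 to 10.6 on d17. Its part in the Pcdhac2 changes was not tested.

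Pcdhgc3, the member with the highest CPM on the mean over all 27 libraries, was at 9.07, 13.8 and 8.89 on d12, 21.8, 18.2 and 28.04 on d15 and 23.2, 19.3 and 14.6 CPM on d17 in AKR/J. Its C57BL/6J levels were 31.7, 47.9 and 17.2 on d12, 60.3, 59.04 and 52.4 on d15 and 45.3, 12.5 and 25.04 on d17, and its Cav1-null levels 18.1, 18.8 and 13.5 on d12, 14.8, 14.01 and 15.6 on d15 and 13.6, 18.9 and 18.1 on d17. It rose early in AKR/J (log2 fold change 1.05, SE 0.26, adjusted p = 0.0184), stayed between 13.5 and 18.9 CPM in all 9 Cav1-null libraries, and in C57BL/6J had its lowest value in a d17 library and its highest on d15. Pcdhgc4 was at 5.11, 6.02 and 4.47 on d12, 12.2, 9.899 and 13.9 on d15 and 15.8, 14.5 and 14.4 CPM on d17 in AKR/J. C57BL/6J had 12.97, 24.7 and 8.22 on d12, 44.98, 47.8 and 53.7 on d15 and 72.3, 14.8 and 29.8 on d17, and Cav1-null 10.2, 10.1 and 10.5 on d12, 14.9, 12.3 and 13.2 on d15 and 19.3, 25.1 and 20.8 on d17. Each C57BL/6J d15 library was above every AKR/J and Cav1-null library, and the C57BL/6J d17 libraries were spread apart. It was called higher early in AKR/J (log2 fold change 1.16, SE 0.25, adjusted p = 0.0122) and C57BL/6J (log2 fold change 1.64, SE 0.34, adjusted p = 0.0294) and late in Cav1-null (log2 fold change 0.70, SE 0.12, adjusted p = 9.47e-04). Pcdhgc4 was thus the C-type member with a called rise in each strain, in 1 of the phases. Pcdhgc5 was at 3.54, 6.51 and 4.52 on d12, 7.38, 7.03 and 4.76 on d15 and 5.54, 6.73 and 5.51 CPM on d17 in AKR/J. C57BL/6J had 7.13, 5.99 and 5.65 on d12, 9.94, 7.996 and 7.96 on d15 and 9.61, 5.55 and 7.56 on d17, and Cav1-null 7.96, 6.82 and 6.53 on d12, 5.93, 6.87 and 7.32 on d15 and 7.22, 8.37 and 5.66 on d17. Within each strain the d17 libraries overlapped those of both earlier days. No change of Pcdhgc5 between days was called, the log2 fold changes lying between -0.12 and 0.41.

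**Figure D3:**
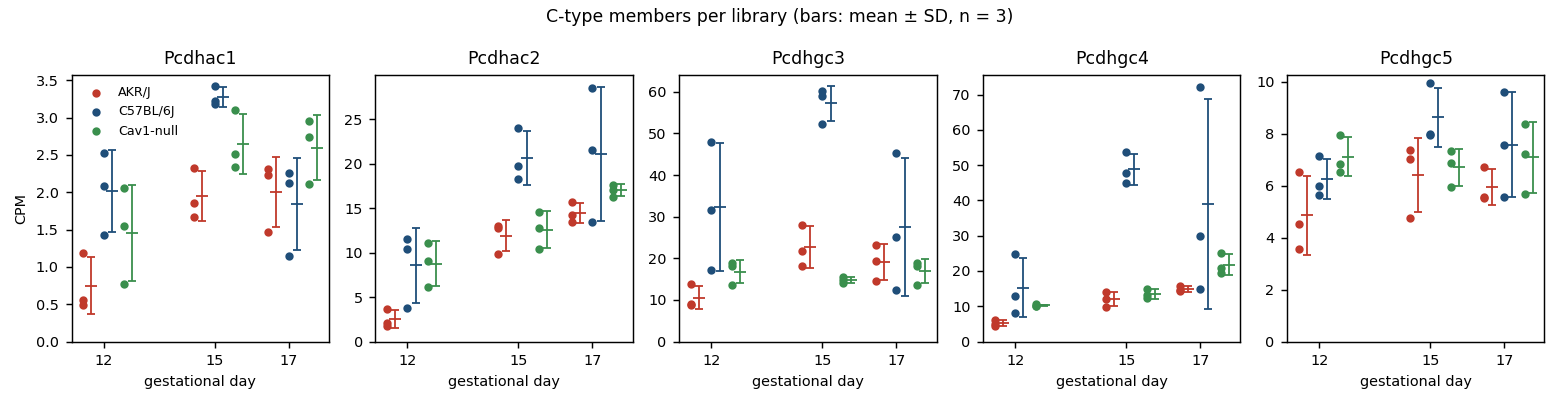
CPM (y axis) of the 5 C-type members against gestational day (x axis), with 1 point per library coloured by strain and bars for the mean ± SD of 3 libraries. Pcdhgc4 reaches 44.98, 47.8 and 53.7 CPM in C57BL/6J on d15 and 72.3, 14.8 and 29.8 on d17, the d17 values being spread, while Pcdhgc5 stays between 3.54 and 9.94 CPM throughout.

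The strains were then compared over the 3 days, in a fit with day as a term. AKR/J had 34 of 56 tested members lower than C57BL/6J, against 25.4% of all genes, and 1 higher, against 18.6%. Cav1-null had 23 of 56 lower, against 24.2% of all genes, and 0 higher, against 18.5%. Without C57BL/6J d12 replicate 3 the Cav1-null count was 35. Both comparisons used the same C57BL/6J libraries. Reads of all strains were aligned to GRCm39, which derives from C57BL/6J, and the paper describes extensive genetic variation in AKR/J. The part of such variants in the AKR/J counts of similar members was not tested. At an unadjusted p under 0.05, 0 Cav1-null members were higher, and DESeq2's Wald test called 0. The median log2 difference over tested members was -0.89 for AKR/J and -0.39 for Cav1-null, beside 0.0092 and 0.051 over all genes.

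Counts differed between clusters, beside 25.4% of all genes lower in AKR/J and 24.2% in Cav1-null. Gamma A members were lower in 11 of 11 cases in AKR/J (median log2 difference -1.38) and in 10 of 11 in Cav1-null (-0.81), and gamma B members in 6 of 7 (-0.91) and 5 of 7 (-0.68). No gamma A member was called in Cav1-null on d12 alone (median -0.30), on d17 alone (-0.74) or without d15 (-0.55), and without d15 and C57BL/6J d17 replicate 1 the median was -0.24. Of the 12 alternate alpha rows, 9 were lower in AKR/J (-1.14) and 2 in Cav1-null (-0.35). Of the 21 beta members tested, 3 were lower and 1 higher in AKR/J (-0.12), and 4 were lower in Cav1-null (-0.18). On d15 alone the Cav1-null calls were not limited to gamma members, with 13 of 21 beta members (median -0.42) and 7 of 11 alternate alpha members lower, beside 11 of 11 gamma A members (-1.32). The share of all genes lower on d15 alone was 31.8%. All 3 gamma C-type and both alpha C-type members were lower in AKR/J, and Pcdhgc3 and Pcdhgc4 in Cav1-null. The beta cluster, which lies between the other two, had the smallest share of calls in AKR/J.

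**Figure D4:**
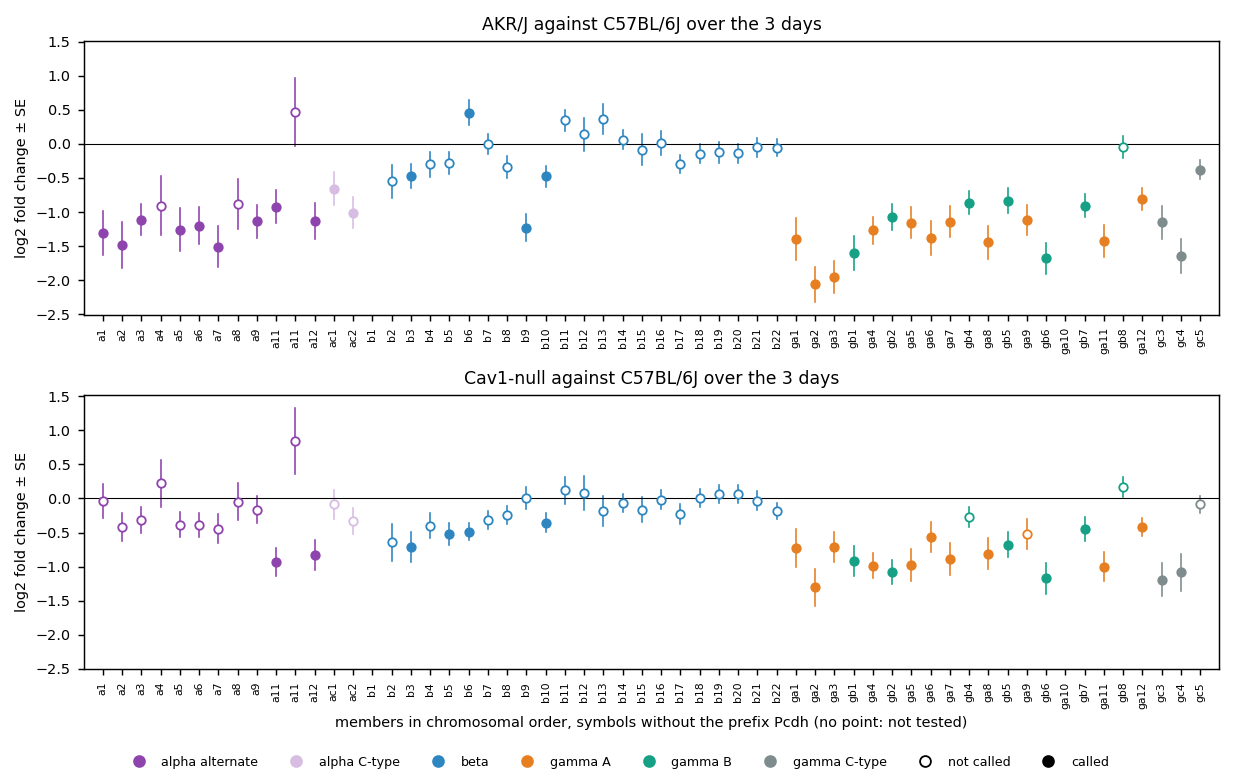
Log2 difference ± SE (y axis) of each tested member between AKR/J (top) or Cav1-null (bottom) and C57BL/6J over the 3 days, in order along the chromosome (x axis); filled points passed the adjusted p threshold of 0.05, and both panels share the C57BL/6J libraries. The gamma points lie below 0 in both panels apart from Pcdhgb8 in the lower one, at 0.17, whereas most beta points lie near 0.

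Pcdhga2 showed the largest gamma A difference in both strains. It was at 1.07, 1.51 and 1.78 on d12, 2.42, 2.47 and 4.19 on d15 and 2.56, 2.097 and 2.104 CPM on d17 in AKR/J. The C57BL/6J libraries had 4.92, 11.4 and 3.94 on d12, 15.3, 15.1 and 17.2 on d15 and 12.1, 3.33 and 5.08 on d17, and the Cav1-null libraries 3.82, 4.19 and 3.598 on d12, 3.24, 3.49 and 3.32 on d15 and 4.18, 3.96 and 2.93 on d17. AKR/J was below C57BL/6J on each day without overlap (log2 fold change -2.06, SE 0.26, adjusted p = 4.66e-05), and Cav1-null was below on d15, with overlap on the other days (log2 fold change -1.30, SE 0.27, adjusted p = 0.00109). Pcdhgb6 did the same in gamma B, at 4.57, 9.08 and 5.54 on d12, 8.48, 7.64 and 12.1 on d15 and 7.03, 5.82 and 5.78 CPM on d17 in AKR/J. C57BL/6J had 19.5, 30.7 and 10.3 on d12, 37.2, 40.3 and 35.9 on d15 and 27.1, 9.19 and 12.5 on d17, and Cav1-null 12.7, 11.3 and 10.9 on d12, 9.66, 11.5 and 9.49 on d15 and 8.49, 10.4 and 8.11 on d17. Its difference was called in AKR/J (log2 fold change -1.68, SE 0.23, adjusted p = 7.01e-05) and in Cav1-null (log2 fold change -1.17, SE 0.23, adjusted p = 6.59e-04). Pcdhga12, the most abundant gamma A member, was at 9.23, 9.97 and 8.99 on d12, 6.72, 7.03 and 8.89 on d15 and 5.19, 5.89 and 5.24 CPM on d17 in AKR/J. C57BL/6J had 8.902, 13.9 and 8.22 on d12, 16.5, 18.4 and 18.4 on d15 and 13.9, 10.5 and 9.76 on d17, and Cav1-null 10.8, 10.8 and 8.73 on d12, 10.04, 8.65 and 12.98 on d15 and 8.22, 8.54 and 7.41 on d17. It was lower in AKR/J (log2 fold change -0.81, SE 0.16, adjusted p = 7.39e-04) and Cav1-null (log2 fold change -0.42, SE 0.13, adjusted p = 0.0153), but its d12 libraries overlapped among all 3 strains.

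The AKR/J d12 libraries of these comparisons are those with the low neuronal sums, whose part in the differences was not tested. Among alternate alpha members Pcdha7 had the largest called difference in AKR/J (log2 fold change -1.51, SE 0.30, adjusted p = 6.94e-04). It was at 0.412, 0.987 and 0.102 on d12, 2.67, 2.93 and 2.65 on d15 and 4.08, 4.23 and 2.97 CPM on d17 in AKR/J, and at 2.65, 3.94 and 1.33 on d12, 6.48, 5.96 and 10.1 on d15 and 9.08, 4.19 and 8.27 on d17 in C57BL/6J. The strains were separate on d12 and d15 and overlapped on d17. In Cav1-null the largest was the row ENSMUSG00000007440, at 1.03, 1.38 and 1.19 on d12, 3.14, 2.45 and 3.12 on d15 and 1.74, 1.49 and 2.35 CPM on d17 against 1.83, 2.18 and 1.21 on d12, 5.54, 4.81 and 5.28 on d15 and 8.05, 2.34 and 4.56 on d17 in C57BL/6J (log2 fold change -0.93, SE 0.21, adjusted p = 0.00185). There the d15 libraries were separate, while d12 and d17 overlapped.

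In the beta cluster Pcdhb9 had the largest called difference in AKR/J. It was at 1.401, 0.888 and 0.711 on d12, 2.39, 3.2996 and 3.58 on d15 and 3.89, 5.17 and 4.44 CPM on d17 in AKR/J. C57BL/6J had 4.17, 3.97 and 1.65 on d12, 7.19, 6.85 and 7.64 on d15 and 10.2, 6.91 and 7.16 on d17, and Cav1-null 2.86, 3.33 and 5.24 on d12, 5.93, 6.197 and 6.51 on d15 and 7.05, 9.22 and 8.36 on d17. Every AKR/J library lay below every C57BL/6J and Cav1-null library of its day (log2 fold change -1.23, SE 0.20, adjusted p = 1.77e-04), and in Cav1-null the log2 difference from C57BL/6J was 0.012 (adjusted p = 0.957). Pcdhb6 was the 1 member called higher in AKR/J (log2 fold change 0.46, SE 0.18, adjusted p = 0.0432), and it was lower in Cav1-null (log2 fold change -0.49, SE 0.13, adjusted p = 0.00604). The AKR/J call of Pcdhb6 was lost with library sizes alone, with no filter on low counts and with a replicate block, when no member was called higher. Pcdhb3 had the largest called beta difference in Cav1-null, at 3.13, 2.57 and 3.36 on d12, 3.42, 2.36 and 2.101 on d15 and 5.58, 4.24 and 3.403 CPM on d17 against 3.41, 3.78 and 1.97 on d12, 5.92, 6.05 and 8.58 on d15 and 10.4, 4.44 and 6.97 on d17 in C57BL/6J (log2 fold change -0.71, SE 0.22, adjusted p = 0.0151). Its d12 libraries overlapped and its d15 libraries did not.

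The strain differences were taken apart by day, since the C57BL/6J d15 libraries stood apart. On d12, 14 of 54 members were lower in AKR/J, against 14.1% of genes, and none was called in Cav1-null, where no gene of the whole table was called either. There 2 of 54 members had an unadjusted p under 0.05 by the same edgeR test, beside 4309 of 19475 genes. On d15, 30 of 55 members were lower in AKR/J, against 22.3% of genes, and 40 of 55 in Cav1-null, against 31.8%. On d17 no member was called in either strain, against 0.361% of genes lower in AKR/J and 9 of 20358 genes lower in Cav1-null. At an unadjusted p under 0.05 in edgeR's test, 26 of 54 members passed on d17 in AKR/J, 23 lower and 3 higher, beside 4275 of 20207 genes. In Cav1-null 6 of 56 passed, all lower, beside 1538 of 20358 genes. The gamma sums of Cav1-null and C57BL/6J did not overlap on d15 and overlapped on d12 and d17: the ratio of summed CPM was 0.723 ± 0.316 on d12, 0.384 ± 0.0292 on d15 and 0.6396 ± 0.353 on d17. The AKR/J ratios were 0.459 ± 0.215, 0.357 ± 0.0556 and 0.494 ± 0.275, with no overlap on any day.

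Leaving out days, an analysis chosen after the levels were seen, measured how far the d15 libraries carried these calls. Without d15, 27 members were lower in AKR/J, where 3199 of 21808 genes were, and 0 in Cav1-null, where 4 of 21675 genes were. With C57BL/6J d17 replicate 1 left out as well, 11 were lower in AKR/J, beside 1847 of 22832 genes, and 0 in Cav1-null, beside 3 of 22460 genes. Without d12 the counts were 33 and 28, beside 4459 of 21373 and 4878 of 21431 genes. The loss of Cav1-null calls without d15 ran through the whole table. At an unadjusted p under 0.05 in edgeR's test, 12 of 56 Cav1-null members passed without d15, beside 6075 of 21675 genes. The d15 libraries of C57BL/6J had 7 erythroid genes at a summed 635 to 742 CPM against 2044 to 2565 in Cav1-null. Their 8 neuronal genes summed to 6832 to 7738 against 5502 to 5643. Some genes of the lists went the other way. Stmn2 and Snap25 had d15 means of 734 and 128 CPM in C57BL/6J against 1055 and 169 in Cav1-null. Hbb-y and Hba-x had 79.7 and 13.1 against 39.8 and 7.30. In AKR/J on d15 the erythroid genes summed to 1858 to 2889 CPM and the neuronal genes to 4047 to 5972. Stmn2 was again above C57BL/6J there, at a mean of 768. The part of these levels in the gamma differences was not tested.

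Whether strains differed in how members changed with day was tested with an interaction term. No member was called between AKR/J and C57BL/6J, against 4.02% of genes, and none between Cav1-null and C57BL/6J, against 0.00449%, by edgeR's quasi-likelihood test. At an unadjusted p under 0.05 in edgeR's test the members numbered 5 and 4 of 56, beside 4990 of 22353 and 2941 of 22282 genes. DESeq2's likelihood ratio test called 2 and 0 members. The smallest adjusted p was 0.0559, for Pcdhb6, in AKR/J and 0.308, for Pcdhb13, in Cav1-null. The larger early alpha change in AKR/J is not shown to differ from that in C57BL/6J. For AKR/J the test called 4 members without AKR/J d12 replicate 2, 1 without C57BL/6J d12 replicate 3 and 1 without C57BL/6J d17 replicate 1. For Cav1-null it called 3 without C57BL/6J d17 replicate 1.

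Junction reads gave a second readout that separates members, since a read across the splice from a variable exon to the first constant exon belongs to 1 member. The deposited junction table held 10 such junctions in the alpha cluster, from 10 of 14 members. In the gamma cluster 22 junctions reached the first constant exon: 1 from each of 20 of the 22 members, 1 from a further donor inside the variable exon of Pcdhgc4 and 1 from a donor assigned to no member. Beta members have no constant exon. Multi-mapped reads, short overhangs and rare junctions had been removed by the authors, so a 0 in this table can stand for removed reads. Among the members, Pcdhgc3 had the most junction reads in all, 2059, followed by Pcdhgc4 with 995 and Pcdhga11 with 508, whereas the highest alpha member, Pcdha3, had 321. Pcdhgc3 was listed at 0 in 7 libraries that held 406 to 2231 of its gene reads, and its junction was not compared between groups.

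Pcdhgc4 was covered by both readouts. On d15 the junction, chromosome 18 intron 37951037-37958073 of GRCm39, had 15, 11 and 19 reads in the AKR/J libraries, 101, 99 and 122 in C57BL/6J and 19, 19 and 23 in Cav1-null. The gene reads of the same libraries were 388, 324 and 436, 1665, 1621 and 1820 and 427, 380 and 391. Both readouts put the 3 C57BL/6J libraries above the other 6. On d17 the junction had 22, 37 and 18 reads in AKR/J, 140, 31 and 63 in C57BL/6J and 32, 48 and 37 in Cav1-null, and replicate 1 of C57BL/6J was again the highest. These are reads per library, not scaled to depth, and the junction reads of a library totalled 2792947 to 4697386.

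**Figure D5:**
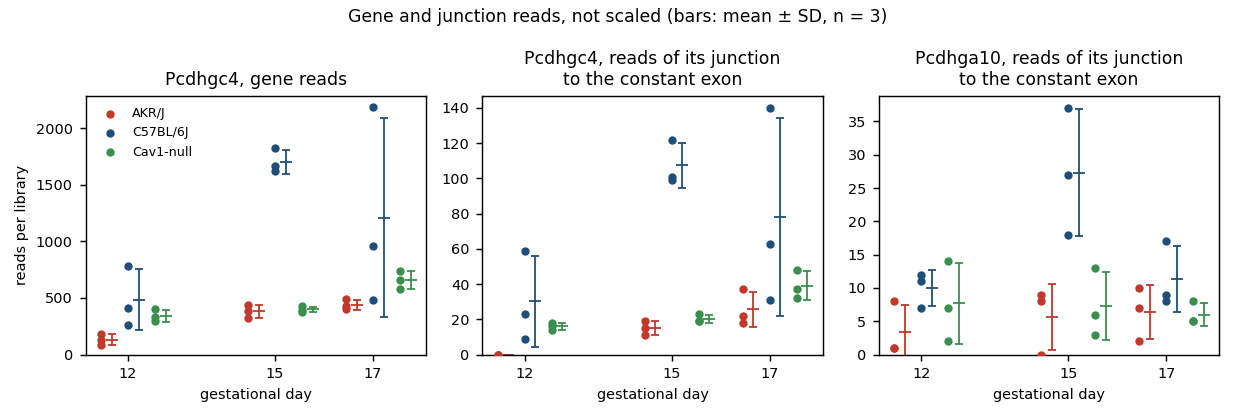
Reads per library (y axes) against gestational day (x axes) for Pcdhgc4 in the gene table (left), its junction to the constant exon (middle) and the same junction of Pcdhga10 (right); each point is 1 library and bars are the mean ± SD of 3, zeros as listed in the junction table. C57BL/6J d15 libraries are the highest of their day for Pcdhgc4 in both readouts, at 101, 99 and 122 junction reads, and for Pcdhga10, at 37, 18 and 27.

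Genes around the clusters were read from 3 lists, whose counts stand beside the shares of all genes called in the same comparisons. These shares, in the order AKR/J, C57BL/6J and Cav1-null, were 14.8%, 7.08% and 11.6% higher and 14.0%, 7.80% and 11.8% lower early, and 11.6%, 7.46% and 14.5% higher and 10.4%, 5.58% and 12.8% lower late. Between strains they were 18.6% higher and 25.4% lower in AKR/J and 18.5% higher and 24.2% lower in Cav1-null. The non-clustered protocadherins (12 genes such as Pcdh1 and Pcdh17), which are single-gene cell adhesion molecules with their own promoters, had 6 higher and 1 lower in the early phase of AKR/J, 6 higher and 0 lower in C57BL/6J and 6 higher and 1 lower in Cav1-null. In the late phase the counts were 5 higher and 1 lower, 2 higher and 0 lower and 8 higher and 0 lower. Between strains 0 higher and 11 lower of 12 were called in AKR/J and 1 higher and 7 lower in Cav1-null, with median log2 differences of -0.83 and -0.39, and Pcdh1 had the largest in both (-1.74, adjusted p = 1.44e-04, and -1.54, adjusted p = 5.04e-04). Most non-clustered protocadherins were thus lower in AKR/J, as were 25.4% of all genes.

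The second list held 23 chromatin regulators known to act on the clusters, including CTCF, which folds the enhancers onto the chosen promoters, cohesin subunits such as Smc1a, the silencer Smchd1 and the DNA methyltransferases. In the early phase 2 higher and 0 lower were called for AKR/J, 0 higher and 2 lower for C57BL/6J and 0 higher and 11 lower for Cav1-null. The early AKR/J and C57BL/6J shares were below or near those of all genes. In the late phase 0 higher and 11 lower were called for AKR/J, 0 higher and 4 lower for C57BL/6J and 1 higher and 7 lower for Cav1-null. Ctcf fell in the early phase in Cav1-null (log2 fold change -0.37, SE 0.10, adjusted p = 0.0324) and in the late phase in AKR/J (log2 fold change -0.30, SE 0.086, adjusted p = 0.0398) and Cav1-null (log2 fold change -0.30, SE 0.067, adjusted p = 0.00443). The other 3 day comparisons of Ctcf gave log2 fold changes of -0.10, -0.11 and -0.54 without a call. Between strains 2 higher and 9 lower were called in AKR/J and 2 higher and 14 lower in Cav1-null, with Wiz, a zinc-finger partner of the G9a methyltransferase, the largest in both (-1.07, adjusted p = 2.79e-04, and -1.20, adjusted p = 2.37e-04). The largest called early changes of the list were Dnmt3b (-0.69) in C57BL/6J and Smc1a (-0.76) in Cav1-null, and the largest late ones Smc1a (-0.77) in AKR/J, Tet3 (-0.90) in C57BL/6J and Rest (-0.57) in Cav1-null, all as log2 fold change.

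The third list held 19 intracellular partners and processing enzymes: the kinases Ptk2 and Ptk2b that gamma and alpha proteins are known to inhibit, the WAVE complex that binds alpha proteins, Marcks, the receptor kinase Ret that phosphorylates protocadherins, and the sheddase Adam10 with the presenilins that cut protocadherins. In AKR/J 5 higher and 1 lower were called early and 2 higher and 3 lower late, in C57BL/6J 3 higher and 0 lower and 2 higher and 1 lower, and in Cav1-null 3 higher and 3 lower and 6 higher and 1 lower. Many of these counts lie near the shares of all genes, such as the late AKR/J ones. Ptk2b had the largest called change in the late phase of all 3 strains, with log2 fold changes of 1.93 (adjusted p = 0.00688), 2.03 (adjusted p = 0.0249) and 2.35 (adjusted p = 7.54e-06). Ret had the largest early change in AKR/J (2.73) and C57BL/6J (1.59), and Ptk2b in Cav1-null (1.15). Between strains 1 higher and 16 lower were called in AKR/J, led by Cyfip2 (-1.42), and 3 higher and 13 lower in Cav1-null, led by Marcks (-1.21). The summed level of the list was 3775 to 3911 CPM in the C57BL/6J d15 libraries against 1920.4 to 2614 in AKR/J and 1861 to 1907 in Cav1-null on that day.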

How the data were processed

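Raw read counts per gene and per splice junction were deposited by the authors for 27 libraries. Per the labels and the study's methods, reads were trimmed with cutadapt and fastp and aligned with STAR to GRCm39, a C57BL/6J-derived genome. The junction counts came from multi-sample mapping with multi-mapped and rare junctions removed. The counting tool, its strand setting and versions are not given in the sources used here.

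Genes passing edgeR's filterByExpr were fitted with TMM scaling and the quasi-likelihood test (edgeR 4.0.16, R 4.3.3), each comparison on its own libraries, and p-values were adjusted over all genes tested at 0.05. CPM used TMM library sizes. Strains were compared with day as a term, and the strain by day interaction was tested with an F test. Tests were checked on simulated data. Depth was 26363697 to 39759702 gene reads per library, and intervals of a low count cover counting error only. Members and lists were chosen with earlier results of these data known. Values in every library were given for the 5 C-type members, the most abundant member of each other group, and the called member with the largest change in each group and comparison; Pcdhb6, Pcdhga10, Pcdhb1 and the junctions shown were chosen after their values were seen. Marker lists used were erythroid, neuronal, neural progenitor, placenta and yolk sac, connective tissue, choroid plexus, astrocyte and serotonergic genes. Alternatives were DESeq2 1.42.0, RLE size factors, library sizes alone, no filter, all 27 libraries in 1 model, a replicate block, single days, and each library left out. Leaving out d12 or d15, and combinations with C57BL/6J d17 replicate 1, were added after seeing the data. No sequence, and not every gene of the related lists, is reported here.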

Additional observations from a re-analysis of the deposited data

Results flagged for a closer look

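The junction reads of Pcdhga10 gave a signal outside the gene read counts used for the comparisons. The gene table listed Pcdhga10 at 0 reads in all 27 libraries, whereas the junction from its variable exon to the first constant gamma exon had reads in 26 of the 27, with 255 reads in all. The C57BL/6J d15 libraries had 37, 18 and 27 reads, and 37 was the highest of the series. On the same day AKR/J had 0, 8 and 9 and Cav1-null 3, 6 and 13. On d12 the reads were 1, 8 and 1 in AKR/J, 12, 11 and 7 in C57BL/6J and 2, 7 and 14 in Cav1-null, and on d17 they were 2, 10 and 7, 17, 8 and 9 and 5, 8 and 5 in the same order. The strains overlapped on d12 and d17. The variable exon lies within the antisense gene Gm26672, and the part of this overlap in the gene count of 0 was not tested.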

How the results depend on the processing

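The cause of the changes given here was not tested. Leaving out each library in turn gave 11 to 32 called members for AKR/J d12 to d15 (27 with all libraries), 0 to 6 for d15 to d17 (4), 0 to 45 and 0 to 19 in C57BL/6J (22 and 1) and 4 to 23 and 8 to 15 in Cav1-null (13 and 14). Between AKR/J and C57BL/6J the range was 31 to 37 (35), and 11 when day 15 was left out with C57BL/6J d17 replicate 1. Between Cav1-null and C57BL/6J it was 19 to 35 (23), and 0 when day 15 was left out with C57BL/6J d17 replicate 1. The interaction tests gave 0 to 4 for AKR/J and 0 to 3 for Cav1-null (0 in both). A model over all 27 libraries gave 0 called members for AKR/J d15 to d17, 34 and 8 for C57BL/6J early and late, 8 and 0 for Cav1-null early and late and 2 for the AKR/J interaction. DESeq2 gave 40 and 7 for C57BL/6J early and late, and 2 for the AKR/J interaction. Library sizes alone gave 2 for AKR/J late, 3 for C57BL/6J late and 2 for the AKR/J interaction, no filter on low counts gave 2 and 3 for the late phases of AKR/J and C57BL/6J, and RLE size factors gave 1 for the AKR/J interaction. On single days the AKR/J count was 14 on d12 and 0 on d17, and the Cav1-null count 0 on d12, 40 on d15, 0 on d17 and 0 without d15. On d17 without C57BL/6J replicate 1 both were 0.

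Replicate numbers did not pair the samples, the deviations of same-numbered libraries correlating between -0.20 and 0.17 with no comparison above 0.1 in every pair. A fit with a replicate block gave 20 and 3 called members in AKR/J early and late, 0 and 3 in C57BL/6J, 9 and 15 in Cav1-null, 31 and 19 between AKR/J or Cav1-null and C57BL/6J, and 0 in both interactions.

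For the members named by rule, in the comparisons where they were called, 1111 of 1513 alternative values kept direction and call, 393 kept the direction without a call, and 9 changed sign. The log2 difference of AKR/J from C57BL/6J became 0.11 for Pcdhac1 on d17 and 0.22 on d17 without C57BL/6J replicate 1, 0.011 for Pcdhga12 on d12, and 0.0055 for Pcdhgc3 on d17 without that replicate. For Cav1-null it became 0.019 for Pcdhb3 and 0.0056 for Pcdhga12 on d12, and 0.33 for Pcdhga1 and 0.021 for Pcdhgb7 on d17 without that replicate. It was 0.018 for Pcdhga1 when d15 was left out with that replicate. Over fits with a library left out, including those on fewer days, the range for Pcdhga1 was -0.85 to 0.33. Of 768 alternative ratios of summed CPM, 736 were within 1 SD of the reported value. Library sizes alone moved the median of all genes in AKR/J d12 to d15 from 0.022 to 0.46 and in C57BL/6J d15 to d17 from 0.029 to 0.17; relative to it, members were at 1.03 and 1.00 in the first and at -0.14 and -0.13 in the second. Among members with few reads, Pcdhb1 was tested in no comparison and Pcdha4 in only some. For such members the lack of a call does not show the lack of a difference.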

Other observations

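Alpha members with few reads in the gene table also had junction reads. The row ENSMUSG00000102206, which carries the symbol Pcdha11, had 198 gene reads over the 27 libraries and 145 reads across its junction to the first constant alpha exon, seen in 20 libraries. Pcdha4 had 255 gene reads and 86 junction reads, in 10 libraries. By comparison Pcdha3 had 6275 gene reads and 321 junction reads. The junction of Pcdhgc4 described for its own variable exon was not the only splice that reached the first constant gamma exon from that stretch of chromosome 18. A donor inside the same variable exon, at 37948607 of GRCm39, had 79 reads in 20 libraries, and another donor at 37957718, which could be assigned to no member, had 118 reads in 20 libraries.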
